A study of Daphnia magna with 12 samples.

Results

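The 200 brightest probes in unexposed adult female Daphnia magna were followed across 3 waterborne doses of tris(2-butoxyethyl) phosphate (TBEP). They are 200 of the 14338 probes on the array that target Daphnia sequence, or 1.39%. The members were chosen by their mean value over the 3 control arrays. A value is the log2 of the processed intensity minus that array's 75th percentile over all such probes, so that a difference of 1 is a 2-fold difference. Before ranking, 389 probes were set aside, 219 because they lay 4 or more log2 units below their median of the 11 other arrays on replicate 1 of 14.7 µg/L, and 204 because they ranged over more than 4 log2 units on those 11 arrays. Of these, 34 met both conditions, and 13949 probes were left to rank.

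The water flea Daphnia magna is a freshwater crustacean whose females reproduce mostly without males, and TBEP is an organophosphate ester added to floor polishes and plastics. Each of the 12 samples was total RNA of 10 pooled whole females, held for 21 days from an age under 24 hours and labelled with the dye Cy3. The groups were control animals without TBEP and animals held at 14.7, 147 and 1470 µg/L TBEP, called the low, middle and high dose where several groups are listed, with 3 pools in each. The labels call the pools biological replicates and do not say whether they came from separate vessels, so p-values measure the spread between these pools only.

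In animals in general, the most abundant messenger RNAs of a whole body encode proteins made in bulk. These include ribosomal proteins and translation factors, muscle proteins, digestive enzymes, and in egg-producing females the yolk protein vitellogenin. In Daphnia, haemoglobin RNA can also be abundant. The files identify a probe by a code only, and no table given here pairs these codes with genes, so no member is tied to any of these proteins and neither the tissue nor the sex could be checked against marker genes. Brightness also depends on the sequence of the probe and how well it binds, so the list is one of bright probes, and its order is not an order of RNA amount. In pooled whole animals, fewer cells of a type and less RNA per cell cannot be told apart.

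The arrays had a 75th percentile of 172 to 261 intensity units, and 8925 to 11125 probes lay well above background. There were 2 array slides, with replicates 1 and 2 of every group on slide 1 and replicate 3 on slide 2. Replicate 1 of 14.7 µg/L stood apart from the other arrays through the probes lost on it, and some of the results that use it are given with and without it. No spot was saturated on any array. The brightest spot reached 414096 to 491852 units per array, against a saturation value of 778347 to 778362 units. All 200 members were well above background on all 12 arrays and were among the 10040 probes that entered the tests.

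DM00429P1 headed the list and was the brightest of the 14338 probes on all 12 arrays. It had 454773, 442342 and 429907 intensity units in the controls, 457094, 421198 and 411743 units in the low-dose pools, 461065, 425325 and 440587 units in the middle-dose pools, and 447459, 467679 and 439452 units in the high-dose pools. The groups overlapped, and the lowest and highest pools were replicate 3 of 14.7 µg/L and replicate 2 of 1470 µg/L. This single probe held 2.02% to 2.57% of the summed signal of an array. The next in order were DM01597P2 and DM02924P1, which took ranks 2 and 3 on every array, with DM02924P1 ahead of DM01597P2 on 5 of the 12. The members from the 4th to the 10th place were DM08998P1, DM11755P3, DM02775P1, DM08143P1, DM07707P3, DM11621P3 and DM00608P2.

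DM11621P3 moved most among these first 10. It had 208814, 261523 and 212440 units in the controls, 127290, 196687 and 174360 units in the low-dose pools, 208250, 235751 and 239984 units in the middle-dose pools, and 231839, 236688 and 210062 units in the high-dose pools. In intensity all 3 pools at 14.7 µg/L lay below all pools of the other groups, and once each array's 75th percentile was taken off they overlapped with the control and 1470 µg/L. Its rank ran between 8 and 21 on the exposed arrays. The other 9 of the first 10 members kept to ranks 1 to 12 on those arrays.

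The list ended without a step. The 199th and 200th members, DM08238P1 and DM00877P1, had control means of 5.91 and 5.86 log2 units above the 75th percentile, and the first probes outside, DM01038P2 and DM06379P1, both had 5.85. These values chose the list and are given as a description. The SD of the control values was 0.54 for DM08238P1 and 0.15 to 0.20 for the other 3 probes, so the members near the edge were not separated from the probes outside.

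The 200 members held the larger part of the signal on every array. Their share of the intensity summed over all 14338 probes was 61.1%, 58.1% and 60.2% in the controls, 65.9%, 57.1% and 64.6% in the low-dose pools, 62.4%, 59.4% and 62.4% in the middle-dose pools, and 61.4%, 61.1% and 61.0% in the high-dose pools. The pools at 14.7 µg/L included both the lowest and the highest share, and every other group lay inside their range. The group means were 59.8% ± 1.56, 62.6% ± 4.75, 61.4% ± 1.74 and 61.2% ± 0.219 (SD, n = 3 each), in order of dose with the control first.

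**Figure D1:**
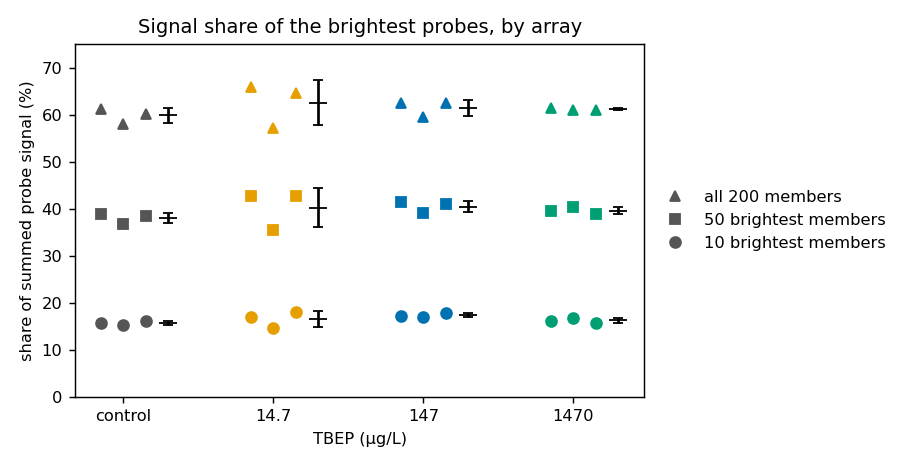
Share of the summed probe signal (%) held by all 200 members, the 50 brightest and the 10 brightest, on each array against TBEP dose (µg/L); points are arrays, and the black bar is the group mean with its SD (n = 3). All 200 members held 57.1% to 65.9% on the 12 arrays, and the 3 pools at 14.7 µg/L were spread most widely.

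Within the list the signal was concentrated at the top. The 10 brightest members held 15.7% ± 0.476 in the controls, 16.5% ± 1.72 in the low-dose pools, 17.3% ± 0.447 in the middle-dose pools and 16.2% ± 0.506 in the high-dose pools. The pools at 147 µg/L, at 16.9% to 17.8%, all lay above the control pools, at 15.3% to 16.2%, and within the range of the pools at 14.7 µg/L. The 50 brightest held 35.4% to 42.7% on the 12 arrays. The remaining 150 members held 20.3% to 23.2%. Counting down from its own brightest probe, an array needed 71 to 96 probes to reach 50% of its signal. No p-value is given for a share, because the list was chosen with earlier results known.

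Part of these shares depends on what was set aside. Of the 389 probes set aside, 22 were at least as bright as the last member in the control pools, all 22 of them for their low value on replicate 1 of 14.7 µg/L. They held 5.93% ± 2.46 of the signal in the controls, 3.39% ± 3.96 in the low-dose pools, 6.75% ± 2.24 in the middle-dose pools and 6.08% ± 2.11 in the high-dose pools. On replicate 1 of 14.7 µg/L their share was 0.0420%, on the array where the members' share was highest.

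Most members stayed among the brightest probes at every dose, a steadiness partly fixed by the rule. The rule had used the exposed arrays to set probes aside, among them 22 as bright as the members. Of these 22, 0 were among the 200 brightest on replicate 1 of 14.7 µg/L. The number of members among the 200 brightest of all 14338 probes was 179, 170 and 177 in the controls, 173, 166 and 171 in the low-dose pools, 169, 155 and 178 in the middle-dose pools, and 168, 171 and 183 in the high-dose pools. The control pools, which ranked the list, overlapped with the exposed pools in this count. Among the 13949 probes left after setting aside, the count was 175 to 191 on the 12 arrays. A list of 200 ranked on the 9 exposed arrays instead of the control arrays shared 194 members, 97% of each list.

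Of the 200 members, 123 were among the 200 brightest of all probes on all 9 exposed arrays, 74 on some of them and 3 on none. By control mean, 20 members already stood outside the 200 brightest of all probes, because the probes set aside are counted in that ranking. The 3 on none were DM12473P1, DM00221P3 and DM00877P1, named here because of that count. They stood at the 215th, 218th and 222nd place among all probes in the controls, so their absence is no move. Among the probes left after setting aside, 146 members were in the 200 brightest on all 9 exposed arrays, 94 of the first 100 members and 52 of the last 100. A cut at 200 lies nearer to the last members, so these counts do not compare how steady the parts of the list were. The median distance between a member's best and worst rank was 29 places for the first 100 members and 93 places for the last 100.

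**Figure D2:**
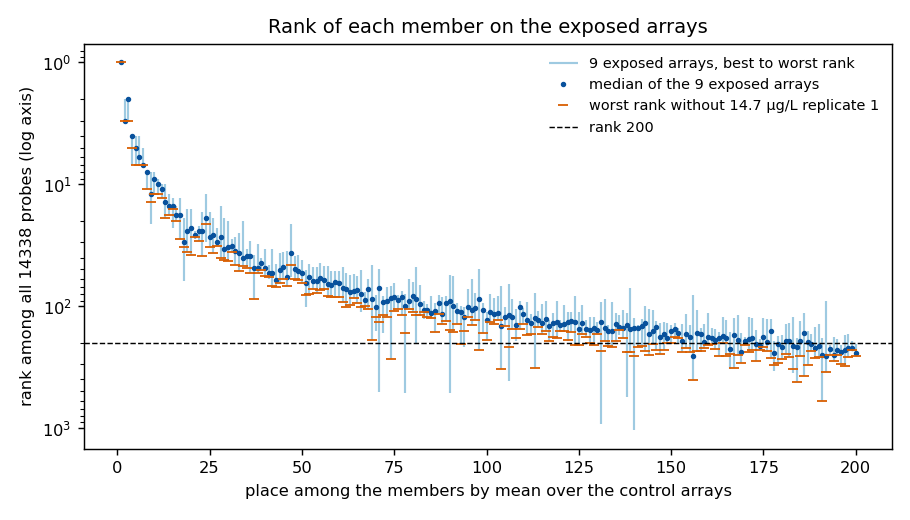
Rank of each member among all 14338 probes on the 9 exposed arrays (log axis, brightest at the top) against its place by control mean; lines run from the best to the worst rank, blue points are medians, and orange marks are the worst rank without replicate 1 of 14.7 µg/L. The first members hardly moved, and the longest lines, down to rank 1047, end at replicate 1 of 14.7 µg/L.

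The 2 members with the widest ranges of rank left the list furthest in 1 pool. DM02214P4, the 140th member, had the widest range, at 922 places, and DM05553P1, the 131st, had 829. DM02214P4 had 20768, 17278 and 26748 intensity units in the controls, 1773, 24789 and 19811 units in the low-dose pools, 23241, 25452 and 23023 units in the middle-dose pools, and 21352, 17291 and 12722 units in the high-dose pools. Only replicate 1 of 14.7 µg/L was far below the others, at rank 1047, and without it the worst rank on an exposed array was 257. DM05553P1 had 2152 units there, at rank 922, and 11077 to 42620 units on the 11 other arrays. Of 7 members with a rank worse than 500 on some exposed array, 1 remained without that pool. It was DM06982P2, at rank 599 on replicate 3 and rank 566 on replicate 2 of 147 µg/L. On replicate 1 of 14.7 µg/L its rank was 182. The narrowest ranges belonged to DM00429P1, with 0 places, and to DM01597P2 and DM02924P1, with 1 place each.

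Members varied less between pools of a group than most probes did under the scaling used here. The median SD within groups was 0.249 log2 units for the members, against 0.318 for all 10040 tested probes, and 143 of the 200 members lay below the median of the tested probes. This order depended on how background was treated. After a normexp background correction, which lifts dim probes off 0, the median SD was 0.245 for the members, against 0.224 for the tested probes. The rule kept widely ranging probes out of the members but not out of the tested probes, so the sets were not selected alike. The first 10 members had a median SD of 0.169 with the 75th percentile taken off and of 0.0972 on the unscaled log2 intensities.

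Some probes were printed more than once on the array. Of the members, 37 had 2 spots (18.5%), against 870 of all 14338 probes (6.07%). The median gap between both spots of a member was 0.0620 log2 units and the largest was 0.304. For all probes with repeated spots the median was 0.121.

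No member passed the limma test between TBEP doses. At an adjusted p under 0.05 over the 10040 tested probes, 0 of 200 members passed in 147 against 14.7 µg/L, where 2 probes, 0.0199% of those tested, were called. In 1470 against 14.7 µg/L, 0 members passed and 0.0199% of the probes were called. In 1470 against 147 µg/L, 0 members passed and 0% of the probes were called. The limma F test over the 3 exposed groups called 0 members and 0.0199% of the probes. These contrasts use the exposed arrays, which did not rank the members, although the rule for setting probes aside used all arrays and removed widely ranging probes. The smallest adjusted p of a member was 0.593, in 147 against 14.7 µg/L, and 0 members passed under any of the 24 other settings tried.

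At an unadjusted p under 0.05 in limma, the members' counts in the main fit lay at or below the background. Under some other settings they lay above it in 147 against 14.7 µg/L, 1470 against 147 µg/L or the F test. In the main fit of 147 against 14.7 µg/L, 14 members (7%) passed, 12 of them higher at 147 µg/L, and 7.03% of the tested probes were called. In 1470 against 14.7 µg/L, 2 members (1%) passed, both higher at 1470 µg/L, and 2.58% of the probes were called. In 1470 against 147 µg/L, 0 members passed and 0.707% of the probes were called. The F test had 5 members (2.5%), against 3.15% of the probes. Without replicate 1 of 14.7 µg/L, the first of these contrasts had 8 members (4%), all higher at 147 µg/L, against 3.64% of the tested probes. Without replicate 2 of 14.7 µg/L it had 51 members (25.5%), against 18.2% of the probes, and without replicate 2 of 147 µg/L it had 3 members (1.5%), against 2.60%. With the replicate number as a block it had 16 members (8%), against 7.62%. With normexp it had 51 members (25.5%), against 8.47%, and the F test had 30 members (15%), against 8.08%. The other normexp contrasts were not alike. In 1470 against 14.7 µg/L normexp gave 22 members (11%), below the 23.3% of the probes, and in 1470 against 147 µg/L 1 member (0.5%), against 0.279%.

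**Figure D3:**
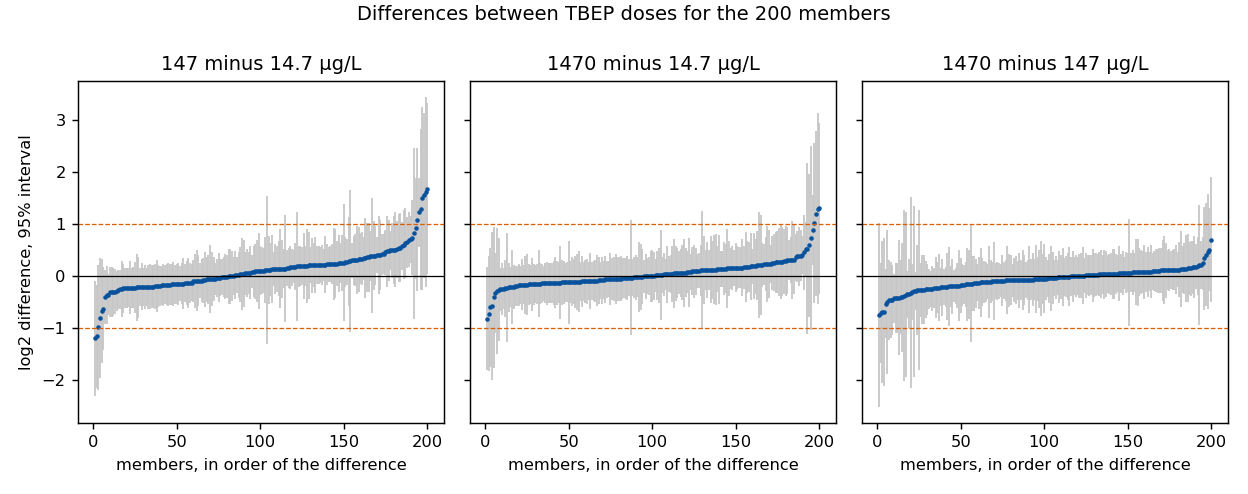
Log2 difference between doses for each of the 200 members, ordered within each contrast, with its 95% interval from limma (grey); dashed orange lines mark 2-fold. Most intervals cross 0 and stay inside the 2-fold lines, and the widest intervals include those of members low on replicate 1 of 14.7 µg/L.

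The 95% intervals are unadjusted, so they give the precision of a difference and not the size of change the adjusted test could miss. DM07799P3, described below, differed by 2.34-fold in 147 against 14.7 µg/L and did not pass that test. In 147 against 14.7 µg/L, the 95% interval of the difference lay wholly within 2-fold either way for 157 members (78.5%), against 67.7% of the tested probes. For 1470 against 14.7 µg/L it did so for 175 members (87.5%), against 73.5%. For 1470 against 147 µg/L it did so for 171 members (85.5%), against 74.3%. Without replicate 1 of 14.7 µg/L the counts were 166, 165 and 176 members in the same order, so the order of the first 2 contrasts depended on that pool. Within 1.5-fold, with all arrays, the counts were 74, 100 and 104 members. Neither these counts nor those without that pool have a share of the tested probes beside them, so they are not set against the background. The median half-width of a member's interval was 0.47 log2 units, or 1.38-fold, against 0.56 log2 units, or 1.48-fold, for all tested probes. Differences smaller than this lay within the error of a typical member. The tested probes, unlike the members, still held the widely ranging probes that the rule set aside.

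DM07799P3, the 183rd member, had the smallest p in 147 against 14.7 µg/L. It had 15232, 25803 and 19316 intensity units at 147 µg/L, against 7537, 15222 and 7374 units at 14.7 µg/L. The groups met within 10 units in intensity at replicate 1 of 147 µg/L and replicate 2 of 14.7 µg/L, and did not overlap once each array's 75th percentile was taken off. On the scaled log2 values it averaged 6.68 ± 0.49 in the middle-dose pools and 5.46 ± 0.41 in the low-dose pools (SD, n = 3 each). The difference was 1.22 log2 units, or 2.34-fold, with a standard error of 0.30, a 95% interval of 0.56 to 1.89 and an adjusted p of 0.593. It was 1.24 on slide 1 and 1.19 on slide 2, and between 0.95 and 1.45 when any 1 array was left out. In 1470 against 14.7 µg/L the same probe differed by 0.89 (standard error 0.30, adjusted p 0.9998), and the control pools had 17921, 17925 and 14962 units.

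DM02401P2, the 47th member, had 98606, 102572 and 113115 units at 147 µg/L, against 65132, 82954 and 68794 units at 14.7 µg/L. The groups did not overlap. The scaled difference was 0.71 log2 units, or 1.64-fold, with a standard error of 0.20 and an adjusted p of 0.653. The lower side of the same contrast was led by DM07870P3, at -1.16, and DM07877P1, at -1.20, both with overlapping groups and an adjusted p of 0.653. DM07877P1 had 13454, 7732 and 6822 units at 147 µg/L, against 23339, 14229 and 36509 units at 14.7 µg/L. Its difference was -0.74 without replicate 3 of 14.7 µg/L and -1.66 without replicate 2.

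In 1470 against 14.7 µg/L, DM07965P1, the 163rd member, had 18565, 19947 and 19848 units at 1470 µg/L, against 16242, 14357 and 11836 units at 14.7 µg/L. The groups did not overlap, and the scaled difference was 0.40 log2 units (standard error 0.17, adjusted p 0.9998). DM07870P3 and DM07877P1 again led the lower side, at -0.82 and -0.72, with overlapping groups. Without replicate 2 of 14.7 µg/L the difference of DM07870P3 was -1.25, and without replicate 3 of 14.7 µg/L that of DM07877P1 was -0.27. Between 1470 and 147 µg/L, DM02665P1 and DM06982P2 were the leading members on the higher side, at 0.51 and 0.70 log2 units. DM06730P2 and DM02255P1 led the lower side, at -0.43 and -0.53. All 4 had overlapping groups and an adjusted p of 0.9998 in limma. The difference of DM02665P1 was 0.16 without replicate 2 of 147 µg/L, and that of DM06982P2 was 0.30 without replicate 3 of 147 µg/L. Without replicate 3 of 1470 µg/L, DM06730P2 differed by -0.27 and DM02255P1 by -0.32.

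Groups of 3 arrays that did not overlap were counted as a second description. In 147 against 14.7 µg/L, 22 members had groups that did not overlap, or 11%, against 8.53% of the tested probes. Both shares pool the directions. Of these members, 21 had 147 µg/L above and 1 had it below, while 363 tested probes had it above and 493 below. Under the scaling used here, these members thus leaned to higher values at 147 µg/L and these tested probes to lower ones. This contrast was not tested, and the counts are given for this scaling only. The median difference of all members was 0.14 log2 units on slide 1 and -0.07 on slide 2. With arrays given the same distribution by quantile normalization it was -0.056, against -0.060 over the tested probes. With normexp it was 0.25, against -0.15. The lean can thus depend on the scaling and the pools. In 1470 against 14.7 µg/L, 2 members had groups that did not overlap, or 1%, against 4.26% of the tested probes. There were 7 in 1470 against 147 µg/L, or 3.5%, against 3.73%. In fold terms, 9 of the 200 members exceeded 2-fold in the first contrast, 4 of 200 in the second and 0 of 200 in the third. Of the 10040 tested probes, 665 (6.62%), 404 (4.02%) and 87 (0.867%) did so. Without replicate 1 of 14.7 µg/L the members' counts were 2, 0 and 0, with no share of the tested probes to set beside them.

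The members as a group shifted little between doses, and the direction depended on the scaling. Their median difference was 0.10 log2 units in 147 against 14.7 µg/L, with 117 members higher and 83 lower, against a median of -0.04 over all tested probes. It was 0.00127 in 1470 against 14.7 µg/L (101 higher, 99 lower; all tested -0.05) and -0.05 in 1470 against 147 µg/L (82 higher, 118 lower; all tested -0.000122). With quantile normalization, which gives every array the same distribution, the 3 medians were -0.06, -0.04 and 0.05. With normexp they were 0.25, 0.24 and 0.02, while the medians of all tested probes were -0.15, -0.18 and -0.08. In 147 against 14.7 µg/L the members' median was 0.14 on slide 1 and -0.07 on slide 2, and it ran between -0.00825, without replicate 1 of 147 µg/L, and 0.16 when any 1 array was left out. In 1470 against 14.7 µg/L it was 0.08 on slide 1 and -0.19 on slide 2.

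The differences from the control are a description only, because the control arrays ranked the members. Under the 75th percentile scaling, the median difference from the control was 0.15 log2 units at the low dose, 0.18 at the middle dose and 0.16 at the high dose, with 146, 177 and 174 of the 200 members higher. Over all tested probes the medians were 0.03, -0.01 and -0.000634, with 55.2%, 48.9% and 49.8% of the probes higher. The 3 comparisons share the same control pools.

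The scale itself moved with these differences. The 75th percentile that was taken off was 259, 249 and 241 intensity units in the controls, 218, 253 and 182 in the low-dose pools, 196, 172 and 208 in the middle-dose pools, and 203, 220 and 261 in the high-dose pools. All 3 middle-dose pools lay below all controls, and the other exposed groups overlapped with them. The median unscaled log2 intensity of the members was 14.94 ± 0.08 in the controls, 14.85 ± 0.21 in the low-dose pools, 14.78 ± 0.04 in the middle-dose pools and 14.93 ± 0.07 in the high-dose pools. After scaling, the same medians were 6.98 ± 0.06, 7.10 ± 0.05, 7.20 ± 0.13 and 7.11 ± 0.24 in that order. The mean of every exposed group was thus above that of the control after scaling and below it before. Before scaling, the low-dose and high-dose groups lay below it by less than their own SD between pools. With quantile normalization the members' median differences from the control were 0.04, -0.07 and -0.0000239 in order of dose, and with normexp they were -0.12, 0.08 and 0.12, beside 0.21, 0.11 and 0.04 for all tested probes.

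**Figure D4:**
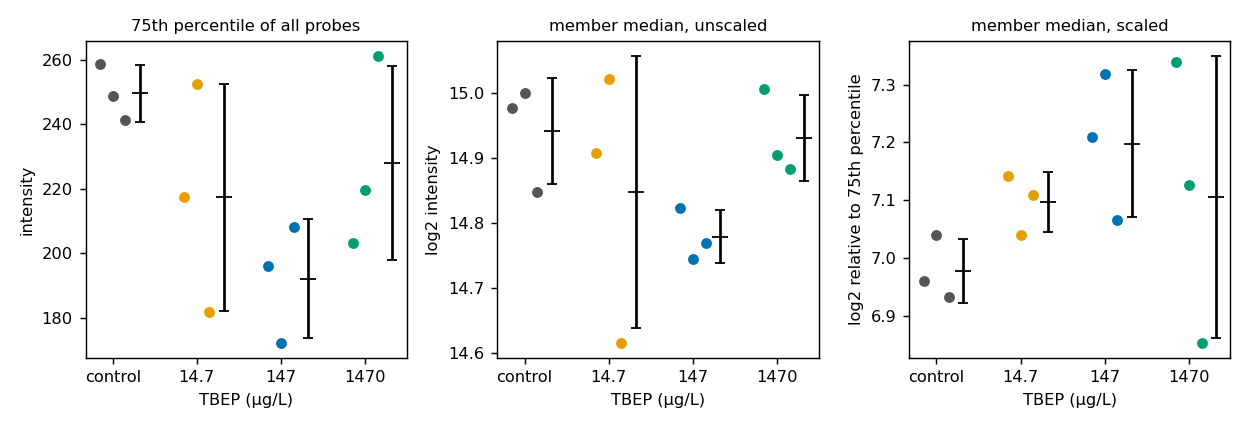
The 75th percentile of all probes (intensity), the members' median unscaled log2 intensity and their median after the 75th percentile was taken off, by array against TBEP dose (µg/L); points are arrays, and the black bar is the group mean with its SD (n = 3). The axes do not start at 0; the group at 147 µg/L had the lowest mean percentile (192) and unscaled median (14.78) and the highest scaled median (7.20).

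Most members were steady over all 12 arrays. A member's range, from its lowest to its highest scaled value, had a median of 0.81 log2 units, and 134 members (67%) stayed within 1 log2 unit, against 48.1% of the tested probes. The range exceeded 1.5 log2 units for 26 members (13%), against 25.6% of the tested probes. The rule capped this range on 11 of the arrays. Of the 26, 10 were among the first 100 members and none among the first 10.

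These 26 were grouped by how alike their values ran over the 12 arrays, after the values had been seen, so the groups carry no test. The largest held 10 members, among them DM05553P1, DM02214P4 and DM06930P1. Their median deviation from their own means was -2.45 log2 units on replicate 1 of 14.7 µg/L, 0.95 on replicate 2 of 147 µg/L, and from -0.63 to 0.60 on each of the remaining 10 arrays. The median correlation between 2 of these members was 0.88 over 12 arrays and 0.74 over the 11 without that pool. The correlations are a description, since all members share the same arrays and were grouped by them.

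A group of 6 members held DM07877P1, DM07870P3, DM06982P2 and DM02665P1, which are the members named above for the lower values at 147 µg/L or the higher values at 1470 µg/L. Its median deviation was -1.09 on replicate 2 of 147 µg/L, -0.55 on replicate 1 of 1470 µg/L and -0.54 on replicate 3 of 147 µg/L, against 0.71 on replicate 3 and 0.60 on replicate 1 of 14.7 µg/L. It was 0.34 on replicate 1 of 147 µg/L and -0.29 on replicate 2 of 14.7 µg/L, so the pools of both doses were on both sides. A group of 5 held DM06238P1. DM06238P1 had 75021, 14333 and 19681 units in the high-dose pools and 51928, 50792 and 14249 units in the controls. Its high and low pools thus occurred within a group, and the group of 5 deviated by 1.05 on replicate 1 of 1470 µg/L and by -1.05 on replicate 3 of the control. The other 5 of the 26 members fell into sets of 2, 2 and 1.

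**Figure D5:**
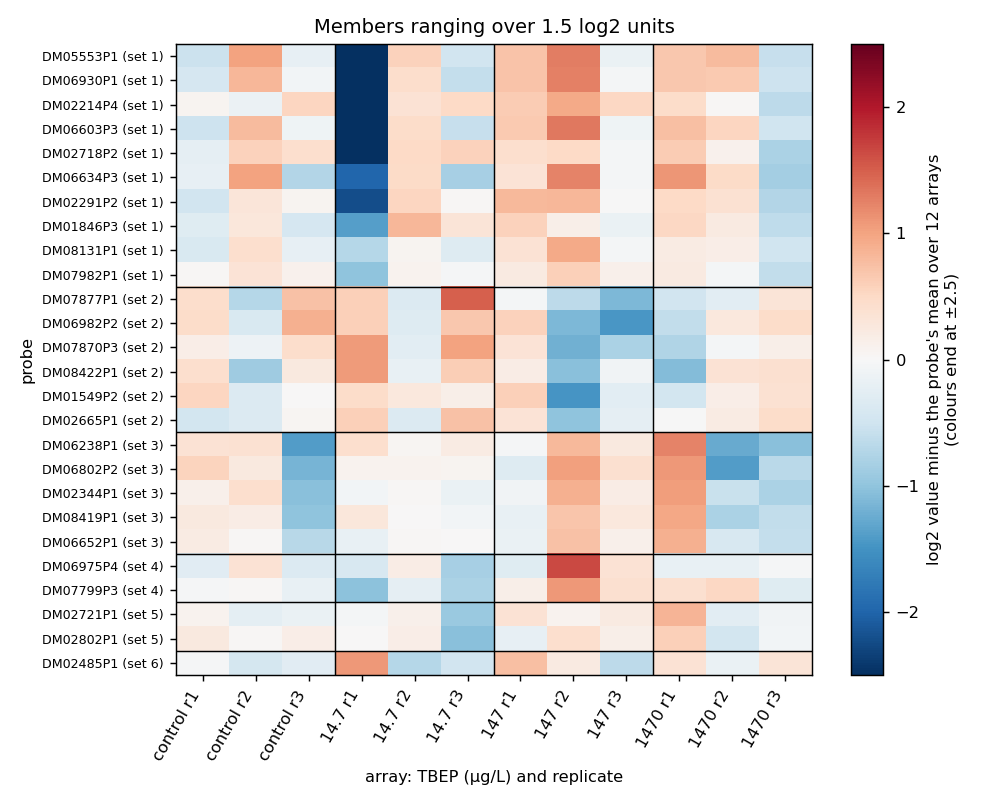
Deviation of the log2 value from the probe's own mean (colour, ending at ±2.5) for the 26 members that ranged over more than 1.5 log2 units, by array (TBEP in µg/L and replicate), in 6 sets of like profile. The first set is low on 14.7 µg/L replicate 1, and in the third set the low pools are spread over 1470 µg/L and the control.

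On replicate 1 of 14.7 µg/L, 13 members were at least 2-fold below their median of the other arrays and 7 at least 4-fold below. The lowest was at -3.69 log2 units, just inside the limit of 4 that the rule set. On each of the 11 other arrays, 0 to 6 members were at least 2-fold below. The median of all 200 members on replicate 1 of 14.7 µg/L was 0.09 above the other arrays. The rule had set aside the probes that lay lowest on this same array. These values thus describe the members that were left, and cannot show how far the loss reached among bright probes.

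Some features of the codes, which the rule did not use, were more frequent among the members than among all probes. A code ends in P1 to P4, and 107 members ended in P1 (53.5%), against 38.5% of all probes. Codes numbered 1501 to 3000 made up 87 members (43.5%), against 10.4% of all probes. What the numbers stand for is not given in the sources used here.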

How the data were processed

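One-colour Agilent arrays were deposited as scanner output. Per the file headers, Agilent Feature Extraction 11.5.1.1 gave each spot a processed intensity and flags for background, outliers and saturation. The deposited table holds the authors' log2 values, which matched quantile-normalized intensities centred on each probe's median (r 0.99993 to 0.99999 per array; column medians -0.03 to 0.13). From the intensities, 28 outlier spots were left out, log2 values of repeated spots were averaged and each array's 75th percentile was subtracted. Probes well above background on every array of some group (10040) were tested with limma 3.58.1 in R 4.3.3 over all 12 arrays, with Benjamini-Hochberg adjustment over the tested probes. The script was tested on simulated data. The members and lists were chosen with earlier results of these data known. Named probes were the 10 brightest, those at the edge of the list, those leading each dose contrast in each direction, and those with the widest and narrowest ranks. Planned gene and marker lists could not be used without gene names. Alternatives covered background correction, scaling, filters, blocks, slides, list size and single arrays. The number of arrays limits the precision.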

Additional observations from a re-analysis of the deposited data

How the results depend on the processing

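No member passed an adjusted p of 0.05 in limma between doses under the 24 other settings, where the lowest adjusted p of a member was 0.139. The 12 named differences between doses kept their sign and stayed short of the threshold in all 288 refits. The kept sign is little of a check, because these members were picked as leaders of the same contrasts. Many refits also leave an estimate as it was, such as those with a block, another filter or an array of another group left out. The members' median differences depended on scaling. With normexp they were 0.25 (147 minus 14.7 µg/L), 0.24 (1470 minus 14.7), -0.118 (14.7 minus control) and 0.0765 (147 minus control). With quantile normalization they were -0.0560, 0.0440 and -0.0728 for 147 minus 14.7, 14.7 minus control and 147 minus control, and with the deposited log2 values -0.0583, 0.0436 and -0.0713. On slide 1 alone, 14.7 minus control was 0.0640. Leaving out 1 array gave 0.0883 (without replicate 3 of the control) to 0.210 for 14.7 minus control, and -0.00825 to 0.16 for 147 minus 14.7, the lowest without replicate 1 of 147 µg/L. The cause was not tested.

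Replicate numbers were checked as pairs. Same-numbered pools had correlations of their deviations between -0.37 and 0.59 (median 0.04), and differently numbered pools between -0.54 and 0.58 (median -0.15), so the numbers were not taken as pairs. Same-numbered pools also shared a slide. With the replicate block, 8 probes were called in 147 minus 14.7 µg/L, 5 in 1470 minus 14.7, 3 in 14.7 minus control and 4 in the F test, with 0 members. The counts of called probes, 2 in each of these 4 tests, were otherwise 1 for 14.7 minus control with no filter on dim probes. They were 0 in all 4 with probes above background on all 12 arrays and on slide 1 alone, and 0 in the 3 contrasts with 2 groups fitted alone. They were 1 for 1470 minus 14.7, 14.7 minus control and the F test with a slide block, and 1 in all 4 with a trended, robust prior. Leaving out 1 array gave 0 to 8 in 147 minus 14.7, 0 to 6 in 1470 minus 14.7, 0 to 5 in 14.7 minus control and 1 to 5 in the F test.

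Signal shares with normexp were 57.6% in the control pools, 58.8% at 147 µg/L and 58.9% at 1470 µg/L. A list of 100 held 49.2%, 51.7%, 51.2% and 50.5% from the control to 1470 µg/L, and a list of 400 held 69.6%, 72.4%, 70.8% and 70.5%. With no probe set aside, 180 of the 200 members stayed, and the shares were 63.9% in the control pools, 66.5% at 147 µg/L and 65.5% at 1470 µg/L. The share at 14.7 µg/L is not given for normexp or for this list. The 22 bright probes set aside held 3.39% of the signal there, against 5.93% in the controls, 6.75% at 147 µg/L and 6.08% at 1470 µg/L. The place of 14.7 µg/L among the group means can thus depend on what was set aside. The median number of members among the brightest probes of an exposed array, of as many probes as members, was 83 for the list of 100, 344 for the list of 400 and 181 with no probe set aside. It was 185 with ranks among the probes left after setting aside, an alternative chosen after seeing the data. The 3 pools a group, and probe codes without gene names or sequences, limit what these values can show.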

Other observations

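The 22 probes set aside that were as bright as the members had a median of -8.47 log2 units on replicate 1 of 14.7 µg/L against their median of the other arrays, with a range of -15.3 to -4.86, and 3 of the 22 were not well above background there. The brightest of them would have stood at the 18th place, and the last member would have stood at the 222nd place had no probe been set aside. On each of the 11 other arrays their median had the same sign as that of the 10 members in the largest set of like profile, which was low on that pool. As medians from the mean of those 11 arrays, the 10 members and the 22 probes were at 0.77 and 0.94 on replicate 2 of 147 µg/L, at -0.28 and -1.27 on replicate 3 of 14.7 µg/L, and at -0.82 and -0.81 on replicate 3 of 1470 µg/L. The 10 members were grouped after their values were seen, and the resemblance was not tested.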
